A study of Mus musculus with 70 samples.

Results

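Very long interactions are the pairs of 10-kb bins that the deposited calls join over 800 kb or more, measured from the start of one bin to the start of the other. All pairs of the 12 pooled and downsampled call sets at this distance were taken, which gave 17699 distinct bin pairs of 248620 in all (7.12%). They were set against the 81566 distinct pairs of 200 to 400 kb (32.8%). The calls end at 1000 kb, so the class runs from 800 to 1000 kb. Just outside the limit, 1106 distinct pairs spanned 790 kb, just inside it 1089 spanned 800 kb, and 589 spanned 1000 kb.

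H3K4me3 PLAC-seq, in which ligated chromatin is immunoprecipitated with an antibody against the histone mark of active and poised promoters, was performed on fetal C57BL/6N mouse tissue. At embryonic day 12.5 (E12.5) there were 4 neural tissues, namely the forebrain (FB), the midbrain (MB), the hindbrain (HB) and the neural tube (NT), and 3 others, namely the liver (LV), the limb (LM) and the craniofacial prominence (CF). FB was also collected on each day from E13.5 to E16.5 and on the day of birth (P0). Each of the 12 tissue-stages had 2 biological replicates, and no tissue carried an engineered allele or received a treatment. CTCF ChIP-seq was done on the same tissue-stages, with technical replicates in LV and in FB at E14.5 and with 1 library in FB at P0.

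Cohesin extrudes chromatin loops and is halted at CTCF, most often where the motifs of both ends point at each other. Many transcription factor genes of the embryo lie beside long stretches with few genes that hold their enhancers, and some promoters reach across them over most of a megabase. A tissue is a mixture of cells, so a contact made in fewer cells and a contact made less often per cell cannot be told apart.

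A pair was listed only if it passed the caller's thresholds, and a pair that is not listed may still be in contact. The total read depth of a set cannot be read from such lists, though the authors downsampled the pooled sets to one number of usable reads. NT replicate 2 stood apart, because its smallest read count was 12 where the smallest of the other replicate sets was 6 or 7. The comparisons of shares and of gene numbers that use it are given with and without it. The labels were checked on contacts of marker genes, summed and divided by the number of called pairs in units of 100000: forebrain markers had 671 in FB and 114 to 424 in the other tissues at E12.5, and limb markers had 214 in LM, 193 in CF and 59.2 to 111 elsewhere. Craniofacial markers had 50.7 in CF and 0 to 35.1 elsewhere. Neural tube markers did not set NT apart, with 146 there, 168 in HB and 151 in MB, and midbrain and hindbrain markers had 118 in MB and 102 in HB, where CF and NT each had 108. Liver markers had few contacts anywhere, 18.2 in LV against 5.60 to 13.1, and only 3 of 5 autosomal ones had any in LV.

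The pairs called in the most tissue-stages, and those called in one group of tissues, show what such an interaction looks like on the genome. The best CTCF motif match in each end is printed 5′ to 3′ on its own strand from the GRCm38 (mm10) reference, with the 19-bp motif in capitals and 5 bases of flank in lower case. A pair is convergent when the end with the lower coordinate carries the motif on the + strand and the other end on the − strand. The sequences are shown because they give the motif directions that the comparisons below count.
Sox6 pair, distal end: atctaTGGACAGTAGGTGGCAGTAggtcg
Sox6 pair, promoter end: ctttgTACCCACAAGAGGGCAACAtcttg
Tbx3 pair, distal end: taaaaTGGCCAGCAGATGGCGCTCcaacc
Tbx3 pair, promoter end: caaagTCGCCTCTAGGTGGCTGATccaga
Col12a1 pair, distal end: gtaggAGACCTCTAGAGGGCAGTGttaac
Col12a1 pair, promoter end: gtgagCACCCACTAGGGGTCAGTTtctgc
Dner pair, distal end: gttagCTGTCACTAGGGGGCAACAtgagc
Dner pair, promoter end: ctccaGGACCAGCAGAGGGCGCTGgagtg
Plxna2 pair, distal end: ctctcCTGCCACTAGGTGGCGCACactgc
Plxna2 pair, Plxna2 end: ggtttTCTCCACTAGAGGGGACTCttcaa
Kcnq5 pair, Kcnq5 end: cactaACACCACTAGAGGGTGCTGaagat
Kcnq5 pair, Rims1 side: catttCAGCCACAAGATGGCAGCAgcgct
Depdc1b to Pde4d pair, Depdc1b end: aaggcTACCCAGCAGAGGGAGCCAtgctc
Depdc1b to Pde4d pair, Pde4d end: gtagaCTACCACTAGGTGTCGCTCaagcc

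The motifs of the Sox6, Tbx3, Dner, Kcnq5 and Depdc1b to Pde4d pairs were convergent. Those of the Col12a1 pair lay on the + strand at both ends, and those of the Plxna2 pair pointed away from each other. In mm10 the Sox6 matches lie at chr7:115216940-115216958 (+), between genes, and at chr7:116033099-116033117 (−), in a Sox6 intron. The Tbx3 matches lie at chr5:118879906-118879924 (+), between genes, and at chr5:119670726-119670744 (−), in a UTR of Tbx3. The Col12a1 matches lie at chr9:78788049-78788067 (+), between genes, and at chr9:79714748-79714766 (+), in a Col12a1 exon. The Dner matches lie at chr1:83736615-83736633 (+), in an intron of a long noncoding RNA gene, and at chr1:84697444-84697462 (−), between genes. The Plxna2 matches lie at chr1:193703262-193703280 (−), between genes, and at chr1:194624628-194624646 (+), in a Plxna2 intron. The Kcnq5 matches lie at chr1:21411387-21411405 (+), in a Kcnq5 intron, and at chr1:22269163-22269181 (−), between genes. The Depdc1b to Pde4d matches lie at chr13:108347215-108347233 (+), in a Depdc1b intron, and at chr13:109213170-109213188 (−), in a Pde4d intron.

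The Sox6 pair joins the promoter of a SOX transcription factor of neurons, cartilage and red cells, whose bin also holds a TSS of 1110004F10Rik, to a bin 820 kb away, and it was called in all 12 tissue-stages. Its pooled count of read pairs was 100 in FB at E12.5, 63 in MB, 72 in HB, 93 in NT, 79 in LM, 71 in CF, 18 in LV, and 106, 117, 110, 120 and 101 in FB from E13.5 to P0. LV was the lowest and the other sets did not reach down to it. The ratio of observed to expected read pairs averaged 22.8 ± 6.35 (SD, n = 12) and was 8.38 in LV against 17.4 to 31.4 elsewhere. The pair was called in both replicates of every tissue-stage, with 23 and 9 read pairs in the LV replicates. CTCF peaks with a motif lay in both ends in all 12 tissue-stages.

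Tbx3, a T-box factor needed for limb, heart and mammary development, was joined to a bin 800 kb away beyond the gene desert on its side towards Med13l. The pooled count was 128 in CF, 95 in NT, 89 in MB, 83 in LM, 73 in HB, 44 in FB and 23 in LV at E12.5, and 39 to 77 in the later forebrain stages. The ratio averaged 19.5 ± 5.35 over the 12 sets. Others called in all 12 sets joined Igfbp5, a secreted binding protein of insulin-like growth factors, over 950 kb (mean ratio 18.2), Jun, a subunit of AP-1, to a bin inside Fggy over 820 kb (18.1), and Col12a1, a fibril-associated collagen gene, over 930 kb (17.1). These 5 were called in LV, where each had its lowest ratio of the 12, from 6.32 at Jun to 10.98 at Col12a1.

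Pairs called in all 4 neural tissues at E12.5 and in none of the 3 others numbered 163 in 75 groups of neighbouring pairs, 0.921% of very long pairs, where the same pattern made up 0.895% of pairs of 200 to 400 kb. The one with the highest ratio ended in the bin of Mir124-2hg, the host transcript of the neuronal microRNA miR-124, 860 kb from a bin with no gene. Its pooled counts were 80 in FB, 96 in MB, 120 in HB and 118 in NT, and 89 to 165 in the later forebrain. The second joined Nfib, a transcription factor of brain and lung maturation, with 8 to 13 read pairs in the E12.5 neural sets and 40 to 106 in the forebrain from E13.5. Only 3 of the 8 neural replicates at E12.5 had the Nfib call, so the pooled call there rests on few read pairs. The pair at Dner, a neuronal Notch ligand, had 10 read pairs in FB, 25 in MB, 29 in HB and 26 in NT, and the pair in Plxna2, a semaphorin receptor, had 29 to 43. Each of these 4 exact bin pairs was called in 9 tissue-stages, the neural ones at E12.5 and the later FB stages. The groups of neighbouring pairs that hold the Mir124-2hg and Nfib pairs were called in 11, so LM or CF had a call there. Those of the Dner and Plxna2 pairs were called in 10, so they reached a single one of LM, CF and LV. A group can chain many pairs, up to 86 at Nfib, so a call in it need not lie beside the named pair.

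The reverse pattern at E12.5, called in LM and CF and in none of the 4 neural tissues, held 175 pairs (0.989%, against 1.44% of pairs of 200 to 400 kb). The later FB stages had no part in this definition. The strongest joined Slitrk6, a neuronal and inner-ear transmembrane protein gene, to a bin 860 kb away, with 18 read pairs in LM and 40 in CF. It was also called in every FB set from E14.5 to P0, with 8 to 14 read pairs, and its mean ratio over these 6 sets was 9.74. Of the E12.5 neural replicates HB replicate 2 had the call, with 11 read pairs, and a pair 20 kb from it at the same gene was called in HB and NT. The Kcnq5 pair, from inside a potassium channel gene towards the synaptic gene Rims1, had 13 read pairs in LM and 15 in CF, and of the 4 replicates only CF replicate 1 had the call, with 7 read pairs. The pair in Adat2, a tRNA deaminase gene, was also called in the FB sets after E12.5 other than E14.5, and in no LM or CF replicate. The pair between Mysm1, a histone deubiquitinase gene, and Fggy was also called in FB at P0. Ratios in this class were lower than those of the pairs called everywhere, which is a description, since the ratio ordered both lists.

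Pairs called in FB at E16.5 and P0 and not at E12.5 or E13.5 were more numerous, 818 (4.62%, against 4.16%), than the 215 called early and not late (1.21%, against 1.59%). The first by ratio ran from an intron of Depdc1b into Pde4d, a cAMP phosphodiesterase gene, with 18, 26 and 24 read pairs on E15.5, E16.5 and P0, and it was called in both replicates of each of these stages. The others joined Lrfn2, a synaptic adhesion gene, to Kif6 over 960 kb, Slitrk6 over 880 kb and a bin in Efl1, a ribosome assembly GTPase gene, over 840 kb. Tissues other than FB had no part in this definition. The Lrfn2 pair was also called in HB and NT at E12.5, and the Slitrk6 pair in HB, NT, LM and CF at E12.5.

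LV had 233 very long pairs, and 52 of them were called in no other tissue-stage (0.294% of distinct very long pairs, against 2.01% of pairs of 200 to 400 kb). Its pairs with the highest ratio joined Hs3st1, a heparan sulfate sulfotransferase gene, to a bin in Clnk, with 15 read pairs, and the bins next to the Jun and Tbx3 pairs above, with 26 and 18. All 3 were also called in other tissues. The Hs3st1 pair was called in neither LV replicate, and the other 2 in both.

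The share of called pairs that were very long was similar in every tissue except LV, and rose from early to late FB in the replicate sets. In the pooled sets it was 6.38% in FB at E12.5, 6.51% in MB, 6.75% in HB, 6.88% in NT, 6.79% in LM, 5.82% in CF and 1.06% in LV. The later FB sets, one for each day from E13.5 on and one for P0, had 7.04, 7.48, 7.39, 7.89 and 7.24%. The 95% Wilson intervals, which cover counting error only, ran from 0.934 to 1.21% in LV and from 5.64 to 6.01% in CF, the next lowest set. LV held 5.57% as many very long pairs as the median of the other sets (4182), and 34.2% as many pairs of 200 to 400 kb (21373).

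**Figure D1:**
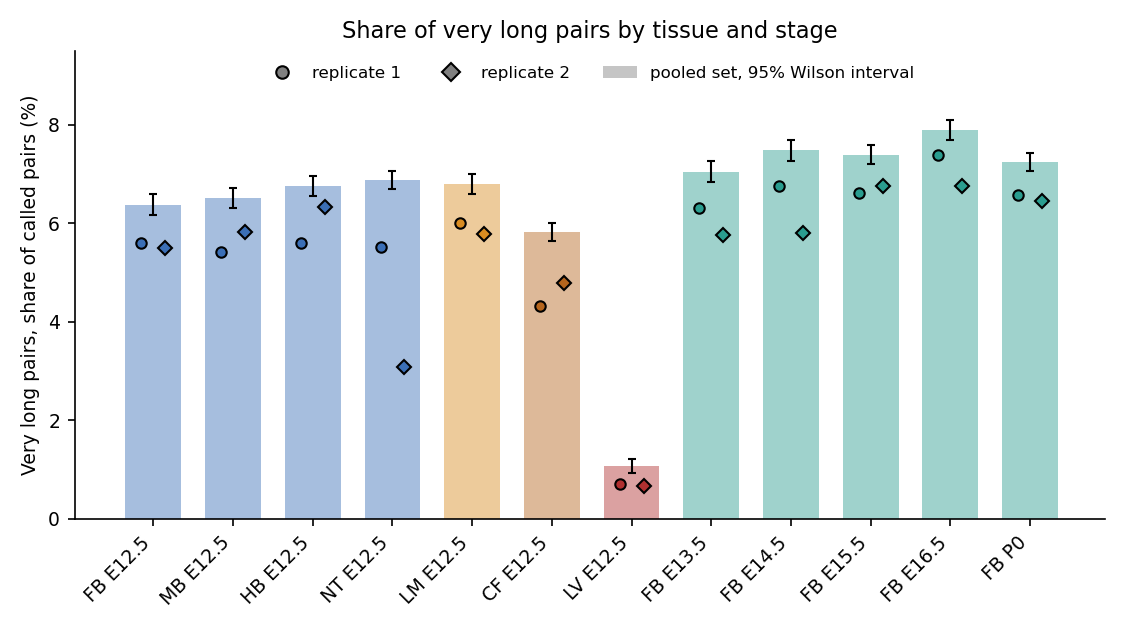
Very long pairs as a percentage of all called pairs (y axis) in the 12 tissue-stages (x axis); bars are pooled sets with 95% Wilson intervals and points are the replicate sets. LV lies at 1.06% and the other pooled sets between 5.82 and 7.89%, and NT replicate 2 lies at 3.08%.

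The comparison over replicate sets used exact two-sided permutation tests, with Benjamini-Hochberg adjustment over 3 comparisons. Replicate sets were permuted as units, so both sets of a tissue-stage counted as independent, and the p-values do not test a difference between tissues. With the mean of both replicates as the unit LV is a single value and late and early FB have 2 values each. Neither of these comparisons can then pass the threshold. The LV replicates had 0.699 and 0.667% and the other 12 sets at E12.5 had 3.08 to 6.32%, with no overlap (mean 5.31 ± 0.880%, exact permutation p = 0.0110, the smallest that 2 against 12 allows, adjusted p = 0.0330). Without NT replicate 2 the difference was −4.83 points (adjusted exact permutation p = 0.0385). Neural sets averaged 5.35 ± 0.964% (n = 8) and LM and CF sets 5.22 ± 0.809% (n = 4), a difference smaller than the spread (exact permutation p = 0.846). Without NT replicate 2 the neural sets were 0.456 percentage points higher (exact permutation p = 0.203). Late FB sets (E16.5 and P0) had 6.45 to 7.38% and early ones (E12.5 and E13.5) 5.49 to 6.30%, without overlap, means 6.79 ± 0.415 and 5.79 ± 0.359% (n = 4 each, exact permutation p = 0.0286, the smallest possible, adjusted p = 0.0429). The number of called pairs moved with this result, 35291 to 63868 in late sets and 16075 to 30876 in early ones, and its part was not tested. Replicate 1 had the higher share in 4 of these 4 FB stages. With the replicate number as a block the late minus early difference of 1.00 points had an exact permutation p of 0.0556, the smallest which that design allows (adjusted p = 0.0833), and without any one of the 4 late sets the adjusted exact permutation p was 0.0857. With pairs of at least 12 read pairs the difference was 0.593 points (exact permutation p = 0.171, adjusted p = 0.257).

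**Figure D2:**
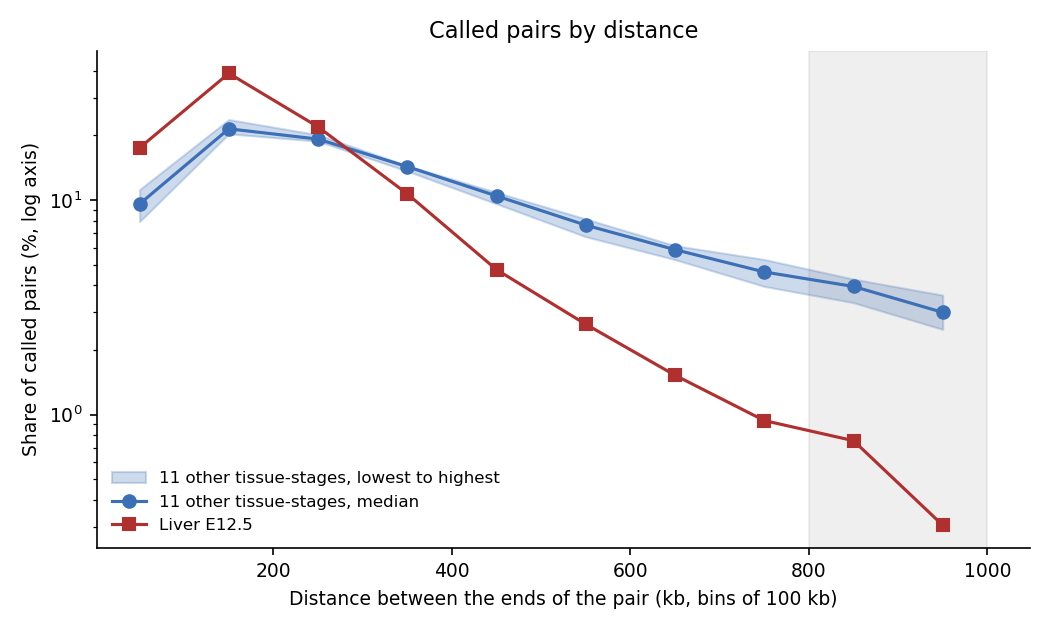
Share of called pairs in each 100-kb class of distance (y axis, log scale) against distance (x axis, kb) for LV and for the 11 other tissue-stages (line, median; band, lowest to highest). The grey area marks the very long pairs, 1.06% of the pairs in LV and 5.82 to 7.89% elsewhere.

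The distance profile of LV fell away faster than that of the other tissues. The median distance was 170 kb in the pooled LV set and 270 to 310 kb in the others. The share of pairs of 200 to 400 kb differed little, 33.3% in LV and 33.9 to 35.1% elsewhere. By chromosome, 4.97% of distinct pairs on chromosome 11 were very long and 9.75% on chromosome 13. The chromosomes with 5.97% or less (9, 10, 11 and 19) held 7.81 to 13.4 protein-coding genes per Mb, and chromosomes 1, 12 and 13, with 8.75 to 9.75%, held 5.35 to 6.96. The order did not hold throughout. Chromosome 7, which had the highest gene density (13.9), broke it with 7.64%, and chromosome 3, with a density of 6.27, had only 6.33%.

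By the median, very long pairs rested on fewer reads than pairs of 200 to 400 kb. The median read count was 13.25 on average over the 12 sets, against 21, the median expected count was 2.59 against 5.93, and the median ratio was 5.09 against 3.52. A listed pair had to reach a minimum read count, so a lower expected count by itself brings a higher ratio and the ratios are given as a description. Neighbouring bins often carried the same contact, so the 17699 pairs fell into 4654 groups in which each pair has another within 1 bin at both ends. Of these groups 2245 were single pairs, and the 349 groups of 10 pairs or more held 48.9% of the pairs.

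Very long pairs spanned gene-poor, CTCF-poor stretches and less often had a promoter at both ends. TSSs of protein-coding genes between the ends numbered 0.392 ± 0.103 per 100 kb (SD over 12 tissue-stages), against 0.857 ± 0.113 for pairs of 200 to 400 kb, and the difference had this direction in 12 of 12 (exact sign-flip permutation p = 0.000488, the smallest possible, adjusted p = 0.00195 over 12 features). CTCF peaks with a motif between the ends numbered 1.13 ± 0.133 and 2.15 ± 0.219 per 100 kb, also lower in 12 of 12 (adjusted permutation p = 0.00195). The GC content of the end bins was 44.9 and 46.7%, again lower in every tissue-stage with the same adjusted p. These density features do not adjust for one another.

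A bin with a protein-coding TSS lay at both ends in 11.2 ± 2.94% of very long pairs and 16.7 ± 1.12% of pairs of 200 to 400 kb (mean difference −5.52 ± 2.11 points, lower in 11 of 12 tissue-stages, adjusted sign-flip permutation p = 0.00195). LV was the exception, with 20.2 and 19.2%. A TSS lay at one end or both in 73.1 and 76.6% (difference −3.54 points, lower in 11 of 12, adjusted permutation p = 0.0132). That difference fell to −0.491 points when pairs had at least 12 read pairs (adjusted permutation p = 0.986). Among distinct very long pairs 12343 had a TSS bin, 2112 had one at both ends and 5356 had none.

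CTCF peaks with a motif lay at both ends of 17.8 ± 3.05% of very long pairs and 21.9 ± 2.11% of pairs of 200 to 400 kb (−4.10 ± 1.66 points, lower in 11 of 12, adjusted sign-flip permutation p = 0.00195). LV was again the exception, 25.8 and 25.1%. Pairs with no CTCF peak at either end made up 28.2 and 26.8% (higher in 10 of 12, adjusted permutation p = 0.00335), a difference that was −0.00948 points with at least 12 read pairs and −0.661 points with replicate calls. Where a pair had 1 TSS bin, 31.9% of the other ends held a CTCF peak with a motif, and 16.1% of the bins mirrored across the promoter did. This excess, 15.8 points, was 16.4 points for pairs of 200 to 400 kb (exact sign-flip permutation p = 0.764). Without LV, whose excess was 33.6 points on 152 pairs, it was 1.79 points lower for the very long pairs (adjusted permutation p = 0.00469). CTCF peak sets differed in size, with 42849, 46653, 57898, 54506, 47514 and 61474 peaks in FB from E12.5 to P0. A second deposited set of peak lists had 41769 at E12.5 and 31927 at P0, and with it the difference for CTCF at both ends was −3.55 points (adjusted permutation p = 0.00195).

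Motif direction was nearly the same in both classes. Where all motifs within an end pointed one way, at both ends, 50.9 ± 3.66% were convergent, against 51.7 ± 2.95% (exact sign-flip permutation p = 0.186, adjusted p = 0.228). Outside LV the shares ran from 46.6% in FB at E15.5 to 54.5% in LM, and 27 of 45 such pairs were convergent in LV. Divergent motifs, as in the Plxna2 pair, made up 7.46%. With at least 12 read pairs the convergent share was 2.22 points higher for very long pairs (adjusted permutation p = 0.00195), so the sign of this comparison depended on the read count. The log2 fold enrichment of the strongest CTCF peak at bound ends was 4.06 and 4.02 (adjusted permutation p = 0.228).

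**Figure D3:**
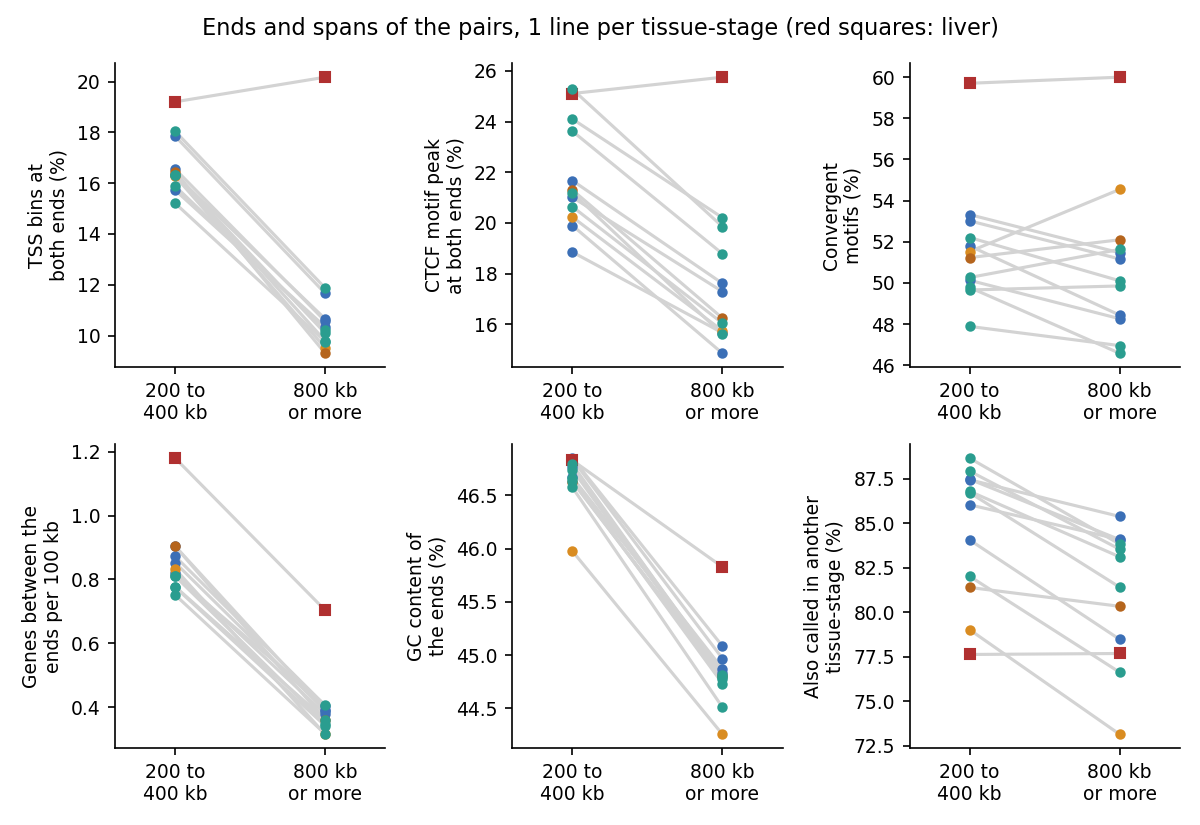
Features of pairs of 200 to 400 kb and of 800 kb or more (x axis, both classes) in each of the 12 tissue-stages (1 line each; red squares LV, blue points neural tissues at E12.5, orange and brown LM and CF, green later FB; y axes in % or in genes per 100 kb, not starting at 0). Genes between the ends fell from 0.857 to 0.392 per 100 kb on average in 12 of 12 tissue-stages, and the convergent share stayed at 51.7 and 50.9%.

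In the pooled sets very long pairs were shared between tissue-stages somewhat less than pairs of 200 to 400 kb, and with replicate calls this direction turned. Of the distinct pairs, 9104 (51.4%) were called in 1 tissue-stage, against 45.4%, and 74 (0.418%) were called in all 12, against 1.44%. A further 325 were called in 11. Per tissue-stage, 81.0 ± 3.76% of the very long pairs were also called in another one, against 84.6 ± 3.72% (lower in 11 of 12, LV 77.7 and 77.6%, adjusted sign-flip permutation p = 0.00195). With replicate calls the very long pairs were 1.44 points higher (adjusted permutation p = 0.474). Calls in both replicates made up 54.6 ± 6.92 and 55.3 ± 4.11% of the mean number per replicate, with no difference beyond the spread (permutation p = 0.569). In LV these shares were 34.3 and 44.1%, and in NT 50.6 and 56.4%.

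**Figure D4:**
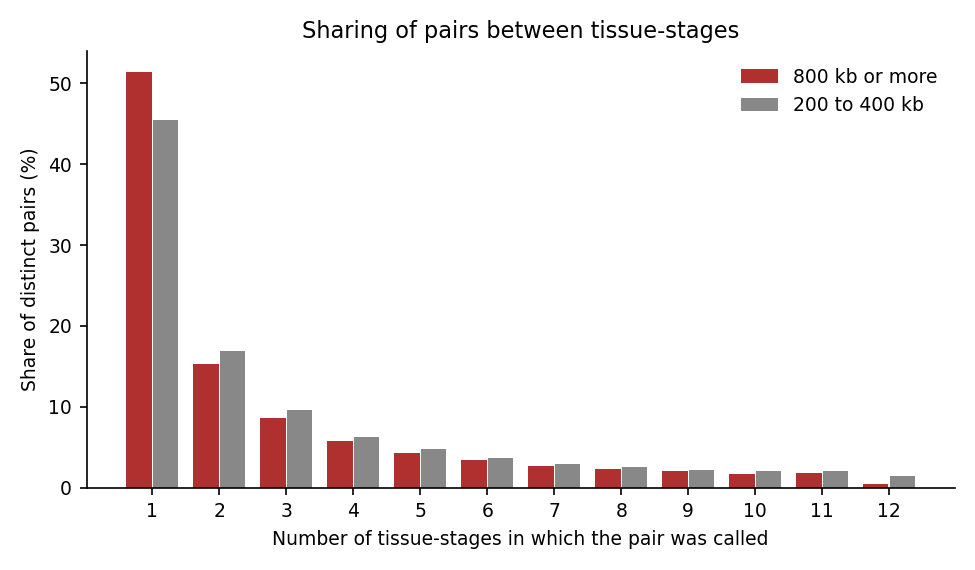
Share of distinct pairs (y axis, %) by the number of tissue-stages in which they were called (x axis), for pairs of 800 kb or more and of 200 to 400 kb. In 1 tissue-stage 51.4 and 45.4% were called, and in all 12 0.418 and 1.44%.

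The overlap of 2 sets was measured as the Jaccard index, the pairs in both over the pairs in either. It averaged 0.282 among neural tissues at E12.5 and 0.230 between neural tissues and LM or CF (exact permutation p = 0.0667, the smallest that the design allows). LV shared little with the other tissues, 0.0336 for very long pairs and 0.135 for pairs of 200 to 400 kb, and its much smaller set bounds this index. Neighbouring FB stages had 0.313 on average, and FB at E12.5 and P0 had 0.228.

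Of 15829 autosomal protein-coding genes with any called pair, 3577 (22.6%) had a very long one, 863 had them in 6 tissue-stages or more and 73 in all 12. LV had 180 such genes and the other sets 960 to 1493. Genes with very long pairs in 6 sets or more had a median length of 33.8 kb, and genes with pairs of other distances only 20.6 kb. Inside single genes lay 384 distinct pairs (2.17%) in 48 genes, with the most, 28, in Ptprt, a receptor phosphatase of synapses, and 26 each in Macrod2 and Prkg1.

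Lists of genes by role differed in this share and were compared with no test. Of 72 neural transcription factors with any called pair, 46 (63.9%) had very long pairs, and so did 73 of 106 neuronal adhesion, guidance and synapse genes (68.9%) and 54 of 90 limb and craniofacial factors (60.0%). Secreted ligands had 28 of 73 (38.4%), hepatocyte and erythroid genes 13 of 44 (29.5%) and housekeeping genes 13 of 56 (23.2%), where the share over all genes was 22.6%. Very long pairs made up 15.5, 15.4, 16.0, 11.9, 10.7 and 6.28% of the called pairs at the genes of these lists in that order, and 5.999% over all genes. Genes with more called pairs of any distance had more chances to be counted.

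Among the neural factors Emx2, a homeobox factor of the cortical primordium, led with 27.5 pairs on average over the 12 sets, 22 to 34 in each set but LV, where it had 0. Zfhx3 (20.7), Nr2f2 (20.4) and Bcl11a (16.9) followed. The adhesion genes were led by Nrp1 (15.9), a semaphorin and VEGF receptor, Cadm3 (13.4) and the ephrin receptors Epha4 (13.3) and Epha3 (12.1). Shh, a morphogen whose limb enhancer is known to lie far away in another gene, led the ligands with 10.4, with 10 in LM, 14 in HB and NT and 1 in LV. Bdnf (9.33), Rspo3 (9.25) and Tgfb2 (7.67) followed. Of the hepatocyte and erythroid list, Bcl11a, Cited2 (7.67), Foxa1 (5.92) and Runx1 (4.67) had the most, and these factors also act outside liver and blood. Bcl11a, Cited2, Foxa1 and Runx1 each had 0 very long pairs in LV. Of the housekeeping genes only Rps24 had very long pairs in 6 sets or more (12.3 on average), and it shares its TSS bin with Polr3a.

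The genes with very long pairs in all 12 sets and the highest numbers were Rgma, a repulsive guidance molecule, with 25.3 on average, Jarid2, a subunit of Polycomb repressive complex 2, with 21.8, and Nr2f2, a nuclear receptor of vessels and interneurons, with 20.4. Rgma had 20 to 32 in the sets other than LV and 3 in LV. Nr2f2 had the widest range of these genes, with 39 in NT, 37 in HB and CF, and 9 in FB at E16.5. Fat4, an atypical cadherin (18.7), Tbx3 (17.9), Myc, the growth regulator (17.5), Sox11 (16.8), Neto2, a kainate receptor subunit (16.8), and Plpp3, a lipid phosphatase (16.5), followed. In LV, Tbx3 had 6, and Myc, Sox11 and Plpp3 had 1.

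**Figure D5:**
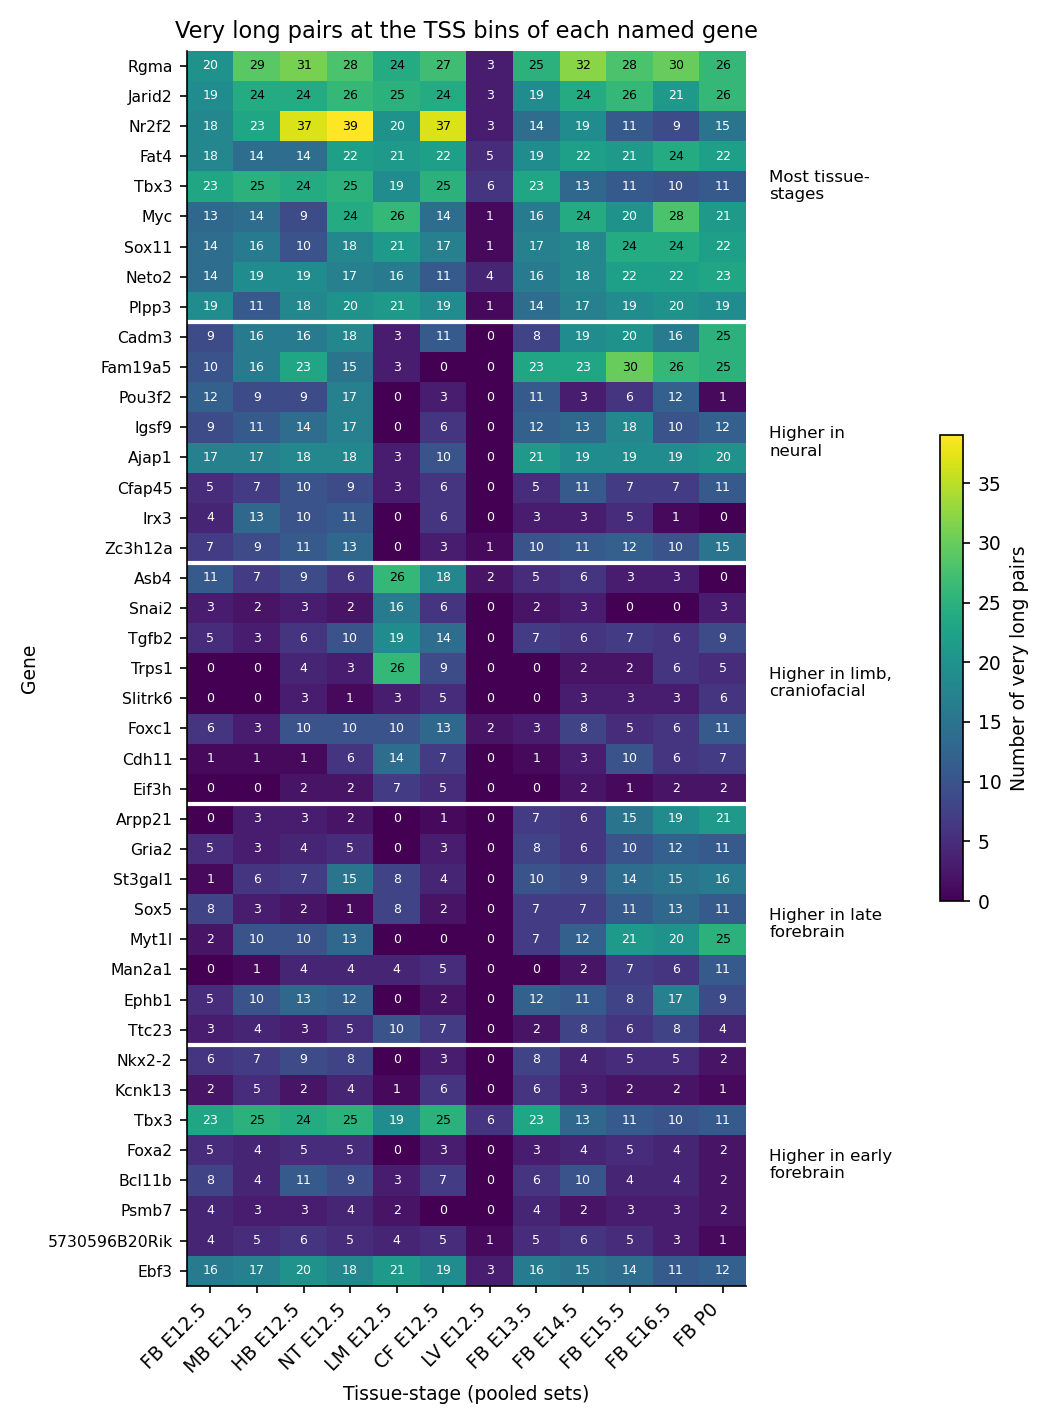
Number of very long pairs (color and digits) at the TSS bins of each named gene (y axis) in the pooled sets of the 12 tissue-stages (x axis), in blocks for the most widely called genes and for the genes of each comparison. Rgma runs from 20 to 32 outside LV, Trps1 from 0 to 26, and the LV column holds 6 at most.

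The 4 neural tissues and LM and CF, whose shares of very long pairs at E12.5 differed by less than the spread, differed at single genes. LV was not part of this comparison. The numbers of very long pairs at the TSS bins of each gene were scaled to the median total of the replicate sets, and log2(number + 1) was compared between 8 neural and 4 LM and CF replicate sets with limma. Of 237 genes with a scaled mean of at least 1, 44 passed an adjusted p of 0.05 (18.6%), 23 higher in neural tissues (9.70%) and 21 higher in LM and CF (8.86%). At an unadjusted p under 0.05 there were 81. Without NT replicate 2 limma called 44 of 252 genes, of which 39 were among these 44, and Cadm3, Pou3f2, Irx3, Asb4, Snai2, Tgfb2 and Trps1 still passed. With the mean of both replicates it called 18. A gene with 0 calls in one group has a log2 difference set partly by the added 1, so differences are given on that scale only. Such a gene also passed the filter on the mean through the other group alone, which favours a contrast. Of the genes named below, Fam19a5, Pou3f2, Cfap45, Zc3h12a and Cdh11 are of this kind.

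Cadm3, a neuronal adhesion molecule gene, had 3, 3, 13, 12, 10, 11, 10 and 7 very long pairs in the replicates of FB, MB, HB and NT, and 0, 0, 0 and 1 in those of LM and CF. The groups did not overlap (log2 difference 2.68 ± 0.362, SE, limma with Benjamini-Hochberg adjusted p = 3.39e-05). In the deeper pooled sets Cadm3 also had 3 in LM and 11 in CF, so the contrast was smaller there. Igsf9, an adhesion gene, and Cfap45, a ciliary gene, lie near Cadm3 and are joined to it by very long pairs called in 10 and 11 tissue-stages, so their numbers are not independent of it (Igsf9 log2 difference 2.22, Cfap45 1.93).

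Pou3f2, a POU factor of neuronal differentiation, had 4, 4, 6, 7, 6, 9, 3 and 1 very long pairs in the neural replicates and 0 in all 4 of LM and CF (log2 difference 2.28 ± 0.331, limma adjusted p = 7.07e-05). Its pooled numbers were 9 to 17 in neural tissues, 0 in LM and 3 in CF. Irx3, a patterning homeobox factor, had 2, 1, 5, 12, 8, 5, 3 and 5 against 0, 0, 1 and 0 (1.93 ± 0.422, limma adjusted p = 0.00255), with the scaled groups overlapping. Fam19a5, which encodes a secreted brain peptide, Ajap1, an adherens junction gene, and Zc3h12a, an RNA endonuclease gene, had differences of 2.35, 1.98 and 1.93. Of these, Fam19a5 overlapped through FB replicate 2, which had 0.

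Asb4, a ubiquitin ligase adaptor gene, had 12 and 13 very long pairs in the LM replicates, 6 and 5 in CF, and 0, 0, 0, 2, 1, 4, 0 and 0 in the neural ones (−3.06 ± 0.411, limma adjusted p = 3.39e-05). Snai2, a factor of neural crest and mesenchymal cells, had 9, 9, 5 and 4 against 0 to 2 (−2.92 ± 0.377, limma adjusted p = 3.39e-05). Tgfb2, a growth factor of the TGF-β family, had 17, 17, 9 and 4 against 0 to 4 (−2.62 ± 0.442, limma adjusted p = 0.000357), and Foxc1, a forkhead factor of skull and eye, had 4, 7, 7 and 6 against 0 to 6. Snai2, Tgfb2 and Foxc1 did not overlap between groups on the scaled numbers. Choosing the largest differences favours this, and the share of all tested genes without overlap was not computed. In the pooled sets Asb4 had 6 to 11 in neural tissues, 26 in LM and 18 in CF. Foxc1 had 3 to 10 against 10 and 13, so its groups met there. Snai2 had 2 or 3 against 16 and 6, and Tgfb2 had 3 to 10 against 19 and 14. Trps1, a GATA-type factor of cartilage and hair, was carried by LM, with 15 and 19 there, 1 and 0 in CF, and 2 in NT replicate 1 (−2.33 ± 0.657, limma adjusted p = 0.0167). Cdh11, a mesenchymal cadherin gene, had 4 and 10 in LM and 0 and 1 in CF, and Eif3h, which very long pairs join to Trps1, had 5, 3, 2 and 0. Slitrk6 had 3 in each of the 4 LM and CF replicates and 2 and 3 in those of HB, with 0 in the other neural ones. Leaving out either LM replicate brought the number of genes called down to 26, and Trps1 was lost in 2 and Cdh11 in 1 of the fits without one replicate set.

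By list, 5 of 23 neural factors tested were higher in neural tissues (Pou3f3, Nkx2-2, Sox2, Pou3f2 and Irx3) and 1, Dlx5, was higher in LM and CF. Over all 237 genes tested 9.70% were higher in neural tissues and 8.86% in LM and CF. The lists below with 5, 8 and 12 genes are too small to be set against these shares. The median log2 difference was 0.47 over the neural factors and −0.00 over all genes. Of 34 limb and craniofacial factors 5 were higher in LM and CF (Ebf3, Osr1, Gli3, Foxc1 and Snai2) and 2 in neural tissues (Sp9 and Irx3), with a median of −0.22. Without scaling the medians were 0.93, 0.16 and, over all genes, 0.36, and the limb list counted 2 in LM and CF and 4 in neural tissues, so its direction turned. Over all 261 genes then tested 33 were higher in neural tissues and 8 in LM and CF. Gli3, a Hedgehog pathway factor, had the same mean in both groups of pooled sets, 4. Of 8 ligands 2 were higher in LM and CF, Tgfb2 and Bmp2, and 0 in neural tissues. The adhesion list had 1 each way of 12, Cadm3 and Cdh11. Foxa1, a forkhead factor of liver and of the floor plate, was the 1 of 5 hepatocyte and erythroid genes to pass, higher in neural tissues.

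Late and early FB were compared gene by gene in the same way, with 4 replicate sets each. Of 404 genes 78 passed (19.3%), 48 higher late (11.9%) and 30 higher early (7.43%), in 71 loci without shared TSS bins, and 163 had an unadjusted p under 0.05. With the mean of both replicates limma called 0 genes (88 at an unadjusted p under 0.05). With single replicate sets left out it called 24 and 28 without the P0 sets, 32 and 46 without the E16.5 sets, 51 without E12.5 replicate 1 and 125 without E13.5 replicate 1. The median log2 difference over all genes was 0.29. It was 1.09 when numbers were not scaled to the totals, and the split of calls was then 187 late and 5 early. The scaled values below are relative to each set's own total of very long pairs, which was 882 to 1945 in early and 2487 to 4194 in late replicates.

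Arpp21, a phosphoprotein gene of cortical and striatal neurons, had 0, 0, 3 and 2 very long pairs in the early replicates and 14, 14, 20 and 20 in the late ones, with no overlap (2.75 ± 0.501, limma adjusted p = 0.00646). Its pooled numbers climbed from 0 at E12.5 through 7, 6, 15 and 19 to 21 at P0. Gria2, an AMPA receptor subunit gene, had 0, 0, 3 and 1 early and 10, 12, 14 and 11 late (2.44 ± 0.486, limma adjusted p = 0.00646). Sox5, a SOX factor of deep-layer cortical neurons, had 1, 0, 1 and 0 early and 9, 9, 9 and 10 late (2.31 ± 0.463, limma adjusted p = 0.00646). In the pooled sets Gria2 had 5 and 8 at E12.5 and E13.5 and 12 and 11 at E16.5 and P0. Sox5 had 8 and 7 against 13 and 11 there, so the contrast of both genes was smaller. Myt1l, a neuronal zinc finger factor, had 0, 0, 8 and 4 early and 13, 17, 21 and 19 late (2.29 ± 0.664, limma adjusted p = 0.0312), and its pooled numbers went from 2 at E12.5 to 25 at P0. St3gal1, a sialyltransferase gene, Man2a1, a Golgi mannosidase gene, Ephb1, an ephrin receptor gene, and Ttc23 had differences of 2.33, 2.26, 2.24 and 2.21. Man2a1 and Ttc23 had 0 in all 4 early replicates, so they passed the filter on the mean through the late sets alone. So did Sox5 and Ephb1, whose early scaled means, 0.822 and 0.854, lay under the filter. In the pooled sets Ephb1 had 5 and 12 at E12.5 and E13.5 and 17 and 9 at E16.5 and P0, so its groups overlapped there. Of the 8 fits without one replicate set, Myt1l was not called in 6, St3gal1 in 5 and Ephb1 in 3. The scaled groups of these genes were apart, which the choice of the largest differences favours. The share of all tested genes without overlap was not computed, so this is not a result about them.

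Fewer genes went the other way, and their raw numbers changed less than the scaled ones. Tbx3 had 19, 19, 22 and 19 very long pairs in the early replicates and 9, 9, 11 and 10 in the late ones (−2.07 ± 0.240, limma adjusted p = 0.000419), and its pooled numbers were 23 at E12.5 and E13.5, 13 at E14.5 and 10 or 11 from E15.5. Without scaling the difference was −0.95 (limma adjusted p = 0.00210). Nkx2-2, a homeobox factor of the ventral neural tube, had 7, 4, 6 and 5 early and 4, 0, 0 and 0 late (−2.83 ± 0.523, limma adjusted p = 0.00646). Foxa2, a floor plate factor, had 3, 3, 3 and 2 against 3, 0, 0 and 0, and a very long pair joined it to Nkx2-2 in 10 tissue-stages. Bcl11b, a zinc finger factor of corticospinal neurons, had 6, 3, 5 and 4 against 3, 2, 1 and 1 (−1.90, limma adjusted p = 0.00892). Kcnk13, a potassium channel gene, and Psmb7, a proteasome subunit gene, had 0 in all 4 late replicates and 1 to 4 in the early ones. Both passed the filter on the mean through the early sets alone. So did Nkx2-2 and Foxa2, whose late scaled means, 0.851 and 0.638, lay under the filter. In the pooled sets Kcnk13 had 2 and 6 early and 2 and 1 late, and Psmb7 had 4 and 4 against 3 and 2. Ebf3, an early B cell factor family gene, had 9, 10, 10 and 12 against 8, 5, 14 and 5, and 5730596B20Rik had 4, 3, 4 and 4 against 4, 2, 1 and 1. Foxa2 was not called in 4 and 5730596B20Rik in 3 of the fits without one replicate set. Neither Ebf3 nor 5730596B20Rik passed without scaling (limma adjusted p = 0.268 and 0.0992).

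On scaled numbers more adhesion and synapse genes were higher late than early, and more neural transcription factors were higher early than late. Over all 404 genes tested 11.9% were higher late and 7.43% higher early. Of 21 adhesion and synapse genes tested 7 were higher late, among them Gria2, Gria1, Grin2b, Cdh4, Negr1 and Ephb1, and 1, Nrp2, early, with a median log2 difference of 0.45 against 0.29 over all genes. Without scaling 14 of 26 were higher late and 0 early, with a median of 1.29 against 1.09. Over all 460 genes then tested 187 were higher late and 5 early. Grin2b, an NMDA receptor subunit gene, had 0 pooled very long pairs at E12.5, 3 at E13.5 and 5 at P0. Its early replicates all had 0, so it passed the filter on the mean through the late sets alone. The same held for Negr1 and Gria1, with early scaled means of 0.285 and 0.992. Of 31 neural factors 2 were higher late, Myt1l among them, and 10 early, among them Pou3f3, Nkx2-2, Sox2, Nr2f2, Zfhx3, Bcl11b, Sox4, Nr2f1 and Emx2, with a median of −0.51. The direction of the neural factors depended on the scaling, since 7 were higher late and 2 early without it, with a median of 0.23. The pooled numbers of several of these genes barely differed, with means of 31.5 late and 32 early for Emx2 and 10.5 in both for Sox4, and Zfhx3 had more late (23.5 against 18.5).

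Of 34 limb and craniofacial factors 2 were higher late, Sox5 among them, and 9 early, among them Hoxd9, Hoxd10, Tbx3, Nr2f2, Ebf3, Sp8, Nr2f1 and Sall3, with a median of −0.52. Hoxd9 and Hoxd10 share a TSS bin and count as one observation. Over all 404 genes the shares were 11.9% late and 7.43% early, and the lists below are too small to be set against them. Without scaling 9 were higher late and 1 early, so this direction turned as well, where 187 of all 460 genes were higher late and 5 early. Of 12 ligands 0 passed in either direction with limma, and 6 were higher late without scaling. Of 5 hepatocyte and erythroid genes 2 were higher early, Foxa1 and Foxa2, both also factors of the ventral neural tube. Rps24 was the only housekeeping gene tested and did not pass in either comparison.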

How the data were processed

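H3K4me3 PLAC-seq calls of 24 replicate sets and 12 pooled, downsampled sets and CTCF ChIP-seq peaks of the same tissue-stages were used. For each 10-kb bin pair of the 19 autosomes the authors deposited the count of read pairs, the expected signal of their MAPS model and an FDR, after mapping to mm10, and kept pairs that passed their FDR and observed-to-expected thresholds at 20 to 1000 kb. CTCF values are the fold enrichment over input that MACS2 gave the authors, and replicated peaks were found in pooled libraries and in their replicates, except in FB at P0, which had 1 library. The submitters' processing notes name BWA, SAMtools, Juicer and MACS2.

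Distances were taken between bin starts. TSSs came from GENCODE vM21 on GRCm38. A 19-bp CTCF matrix was derived from the 5000 strongest peaks and matched at a score of at least 8.05 bits (a chance of 0.0001 per position). Features were compared over the 12 tissue-stages by exact sign-flip permutation, shares over replicate sets by exact permutation, and gene numbers with limma 3.58.1 (R 4.3.3) on log2(number scaled to the median total + 1) for genes with a mean of at least 1, with Benjamini-Hochberg adjustment and a threshold of 0.05. Other steps used Python 3.11.15 with scipy 1.17.1. The procedures were tested on simulated data.

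Named pairs were taken one per group of neighbours, up to 6 called in the most tissue-stages and then by ratio, up to 4 per pattern of tissues and up to 3 in LV. Named genes were the 10 with very long pairs in the most tissue-stages and then by number, up to 8 per direction with the largest difference among those called whose pooled numbers differed the same way, and list members that passed or had the most pairs. The members and lists were chosen with earlier results of these data known. In the comparisons of shares and of gene numbers each replicate set counted as a unit. Their p-values therefore rest on the spread between all sets of a group, which mixes tissues or stages with replicates. The 2 sets of a tissue-stage are not independent samples of the group, so results with the mean of both replicates are given. Gene numbers of same-numbered replicates did not deviate together. The share of very long pairs was higher in replicate 1 in 4 of 4 early and late FB stages, in 3 of 6 tissues of the neural and in 4 of 7 of the LV comparison. The numbers were not taken as pairs, and the fits with a replicate block are given. Some pairs and genes that these rules name are not reported here.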

Additional observations from a re-analysis of the deposited data

Results flagged for a closer look

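A single replicate set stood away from the rest of its group in 11 of 68 groups tested. This count cannot be set against a chance rate. A gene with calls in a single replicate set of a group is always marked, however few the calls. The named genes were also chosen for large differences between groups. NT replicate 2 had 3.08% very long pairs where the other neural sets at E12.5 had 5.42 to 6.32%.

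The others were single genes, given as numbers scaled to the median total of very long pairs. In LM and CF, where the other 3 sets had 0, CF replicate 2 had 1.23 for Cadm3 and 2.46 for Igsf9, and CF replicate 1 had 1.44 for Irx3. Among the neural sets NT replicate 1 alone was above 0 for Trps1 (1.71) and Eif3h (0.855). In early FB, E13.5 replicate 1 alone was above 0 for Ephb1 (3.42). In late FB, E16.5 replicate 1 alone was above 0 for Nkx2-2 (3.40) and Foxa2 (2.55), and P0 replicate 1 was lowest for Sox5 (4.76) and Tbx3 (5.81), where the other sets had 7.66 to 8.02.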

How the results depend on the processing

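Of 934 values recomputed for 49 results, 821 kept their direction and side of the threshold. Another 86 lost the threshold, 5 gained it and 22 changed direction. For counts of called genes, these labels say only whether the count stayed near the main one, fell or rose. For named genes 545 of 594 were kept, 49 lost the threshold and 0 changed direction. With the mean of both replicates 20 of the 32 named genes lost the threshold, among them all those of the FB comparison. The other settings still counted each replicate set as a unit. Causes were not tested.

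Feature differences are very long minus 200 to 400 kb, in percentage points unless stated. A TSS bin at one end or both was no longer past the threshold at 900 kb or more (-2.32), against 400 to 600 kb (-0.834), with neighbouring pairs counted once (-1.41), with replicate calls (-3.78), in the 7 tissues at E12.5 (-2.39), with TSSs of all genes (-1.79) and with at least 12 read pairs (-0.491), a minimum chosen after seeing the data. The convergent share changed sign at 900 kb or more (0.542), at an FDR below 0.0001 (0.688), with replicate calls (2.93) and with at least 12 read pairs (2.22). The share called in both replicates changed sign against 400 to 600 kb (0.206), at an FDR below 0.0001 (0.378) and with neighbours counted once (0.270), and ran from -0.994 to 0.142 with each tissue-stage left out, the last without LV. CTCF above the mirror bin changed sign against 400 to 600 kb (0.322), with replicate calls (1.03), in 7 tissues (0.345) and with at least 12 read pairs (0.630), and ran from -1.79 without LV to -0.338. The log2 fold enrichment changed sign with neighbours counted once (-0.00327) and in 7 tissues (-0.00245), and ran from 0.0269 to 0.0610, the last without LV. CTCF at neither end changed sign with replicate calls (-0.661) and with at least 12 read pairs (-0.00948), and lost the threshold in 7 tissues (1.48) and without the motif requirement (0.455). The share called elsewhere changed sign with replicate calls (1.44). In 7 tissues, where the smallest adjusted exact permutation p was 0.0625, the differences were -5.17 for TSSs at both ends, -3.56 for CTCF at both ends, -2.84 for the share called elsewhere, -1.70 for GC, and -0.489 TSSs and -0.980 CTCF peaks per 100 kb.

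The neural minus LM and CF share changed sign at 900 kb or more (-0.0279) and per 100 pairs of 200 to 400 kb (-0.138), and ran from -0.174 to 0.456 with each replicate left out. The LV difference was -4.63 with the mean of both replicates (adjusted exact permutation p = 0.429) and with the replicate block (adjusted exact permutation p = 0.0612), and -4.83 to -4.54 with each replicate left out (adjusted exact permutation p = 0.115 without either LV replicate). Late minus early FB was 1.00 with the mean of both replicates (adjusted exact permutation p = 0.500), with the replicate block (adjusted exact permutation p = 0.0833) and at an FDR below 0.0001 (adjusted exact permutation p = 0.0857), 0.593 with at least 12 read pairs, and 0.803 to 1.17 with each replicate left out.

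Genes called between neural tissues and LM and CF numbered 18 with the mean of both replicates, 83 at 700 kb or more, 41 with the replicate block, and 26 to 61 with each replicate left out. In FB, limma called 192 with no scaling, 49 with at least 12 read pairs, 72 with the replicate block and 0 with the mean of both replicates (88 at an unadjusted p under 0.05), and 24 to 125 with each replicate left out (24 and 28 without P0 replicates 2 and 1, 32 and 46 without E16.5 replicates 2 and 1, 51 without E12.5 replicate 1, 125 without E13.5 replicate 1). All genes called with the block were also called without it. The correlation of deviations of same-numbered replicates was -0.141 to 0.129 in the first comparison and -0.119 to 0.0612 in the second. Very long calls rested on a median of 13.25 read pairs, so a contact that was not called may lie below this depth.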
